A study of Mus musculus with 4 samples.

Results

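The collagen genes of the mouse lung were taken from single-nucleus RNA-Seq of 4 lungs, as every gene whose symbol is Col, a number, a and a number, with 1 such symbol not reported. These were 43 of the 32285 genes counted. The lungs came from 2 WT mice (C57/BL6J) and 2 VEcad-TRF2DN-Tg mice (Tg), all listed as 8 to 9 weeks old. Whether this is the age before or after the hypoxia described below is not stated. The Tg mice are heterozygous on the same background, and the VE-cadherin promoter drives their transgene, a TRF2 that acts as dominant negative at telomeres, in endothelial cells (ECs). Fibroblasts and epithelium, which make much of the lung's collagen, are not cells in which this promoter is known to be active. Per the study, all 4 lungs came from mice kept in chronic hypoxia, an exposure the labels do not list, and its methods describe male mice. No normoxic lung is among the samples. The study asked how EC senescence bears on pulmonary hypertension.

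Collagens are trimers of chains that wind into a triple helix. Fibrillar collagens such as types I and III form the banded fibrils of the interstitium, with type V chains mixed in, and fibril-associated collagens decorate their surface. Type IV chains build the sheet of basement membranes, in which the Col4a1 and Col4a2 chains are found in nearly all tissues, while the trimer of the Col4a3, Col4a4 and Col4a5 chains is known from the alveolar and glomerular basement membranes. Type VI forms beaded filaments, type VIII belongs to the short-chain networks of vessel walls, and type XIII is anchored in the cell membrane.

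UMIs (unique molecular identifiers, 1 per captured transcript) came to 125261739 and 146133943 in the WT lungs and to 128645180 and 182014706 in the Tg lungs. Barcodes with at least 1500 UMIs numbered 25269 to 44000 per mouse, and those not told apart from free RNA, 15871 and 23543 in WT and 659 and 10010 in Tg, were left out. Nuclei dropped for signal of more than 1 lineage ran the other way, with 707 and 2193 in WT and 5076 and 7993 in Tg, so the libraries of the genotypes stood apart before any collagen was compared. The 65840 nuclei kept in named classes, 9951 to 24933 per mouse, were assigned to 23 classes by marker genes, and no collagen gene took part in the assignment. Each class name stands for nuclei with that pattern of markers and is not the study's annotation. Classes had from 3 to 13 of their fixed markers above empty droplets in every mouse, apart from the Chl1 Kif26b Agtr1b fibroblasts with 2 of 3. The alveolar macrophages had 3 of 8, the fewest in share among the classes tested. A group of 93 nuclei stayed unnamed. Pairs of libraries shared 176 to 475 barcodes, or 0.697% to 1.3% of the smaller set. Barcodes with 300 to 800 UMIs, 2732 to 18387 per mouse, served as empty droplets and show what the free RNA in every droplet holds. From the airway secretory genes Scgb1a1 and Scgb3a2, or from the surfactant gene Sftpc in airway classes, this free RNA was estimated at 20.4% to 71.3% of the UMIs of a class, and in 17 of the 20 classes tested the 2 Tg values were below the 2 WT values. Levels are given as CPM, the UMIs of a gene per 1000000 UMIs of the class in a mouse. In general capillary ECs the mouse gene Terf2 had 54.8 and 56.0 CPM in WT and 35.1 and 48.3 CPM in Tg, but the transgene encodes a human sequence, so these counts do not check it.

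The 6 type IV genes lie as 3 head-to-head pairs in the mouse genome (GRCm38, gene starts from GENCODE M21). Col4a1 (minus strand) and Col4a2 (plus strand) on chromosome 8 overlap at their starts by 22 bases, from 11312805 to 11312826. Col4a4 (minus strand) and Col4a3 (plus strand) start at 82586849 and 82586921 on chromosome 1, with 71 bases between. Col4a6 (minus strand) and Col4a5 (plus strand) start at 141474076 and 141475385 on chromosome X, with 1308 bases between. The stretches upstream of the chains that differ most between classes are shown because partners of a pair are compared below, from the RefSeq windows of GRCm38.p6. The first lies between the starts of Col4a4 and Col4a3 (chr1:82586850-82586920) and is read on the strand of Col4a4. The other stretches lie before Col4a5 (chrX:141475169-141475384, plus strand) and before Col4a6 (chrX:141474077-141474326, minus strand).
Col4a4 to Col4a3: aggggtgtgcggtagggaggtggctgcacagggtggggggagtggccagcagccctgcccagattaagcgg
Col4a5: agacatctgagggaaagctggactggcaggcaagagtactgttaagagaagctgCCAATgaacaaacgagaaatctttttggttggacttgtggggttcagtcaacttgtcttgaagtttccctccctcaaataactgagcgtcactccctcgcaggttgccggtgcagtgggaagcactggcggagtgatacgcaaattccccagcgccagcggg
Col4a6: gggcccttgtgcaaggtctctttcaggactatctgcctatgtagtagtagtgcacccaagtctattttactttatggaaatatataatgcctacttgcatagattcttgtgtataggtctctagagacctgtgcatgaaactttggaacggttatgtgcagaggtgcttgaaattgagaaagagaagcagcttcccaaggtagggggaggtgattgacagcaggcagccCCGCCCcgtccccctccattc
Capitals mark matches on either strand to CCAAT (the CCAAT box) and to GGGCGG (the GC box, CCGCCC on the other strand), and no TATAAA was found in the 3 stretches. The background was 32851 windows from 250 bases before to 50 after a gene start. Of these, 37.4% held a CCAAT box, 35.7% a GC box and 13.6% a TATAAA, so such matches are common. Whether the marked sites have a function was not tested. The stretches shown are shorter than these windows and lie upstream only, and the full window of Col4a5 also holds a GC box.

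Of the 43 collagens, 36 had at least 100 UMIs over all named classes and 7 had fewer. Col9a1 and Col9a2 had 4 UMIs each, Col2a1 (the cartilage collagen) had 5 and Col6a4 had 18. Each class was compared with the empty droplets of the same mice by edgeR's quasi-likelihood test with the mouse as a term, and 35 members passed the filter on low counts in at least 1 class. Among 487 pairs of a class and a member, 101 were higher in the class than in empty droplets and 221 were lower, at an adjusted p under 0.05. The background over all genes was 21.0% higher and 26.4% lower. At least 1 class was above the empty droplets for 33 members, and Col6a1 and Col9a3 were above them in none. The share of pairs above (20.7%) was thus near that of all genes, and the share below (45.4%) was larger than theirs. At least 1 type IV member was above the empty droplets in 10 of the 20 classes, 1 fibrillar member in 10 and 1 fibril-associated member in 9. Such counts were not made for other gene sets of the same size, so they do not show broad expression. Which members were above differed between groups of these classes. For type IV these were Col4a1 and Col4a2 in both kinds of capillary ECs and in pericytes. In club, Tacr1 Lgr6 Vtcn1 airway secretory and ciliated nuclei they were Col4a5 and Col4a6.

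**Figure D1:**
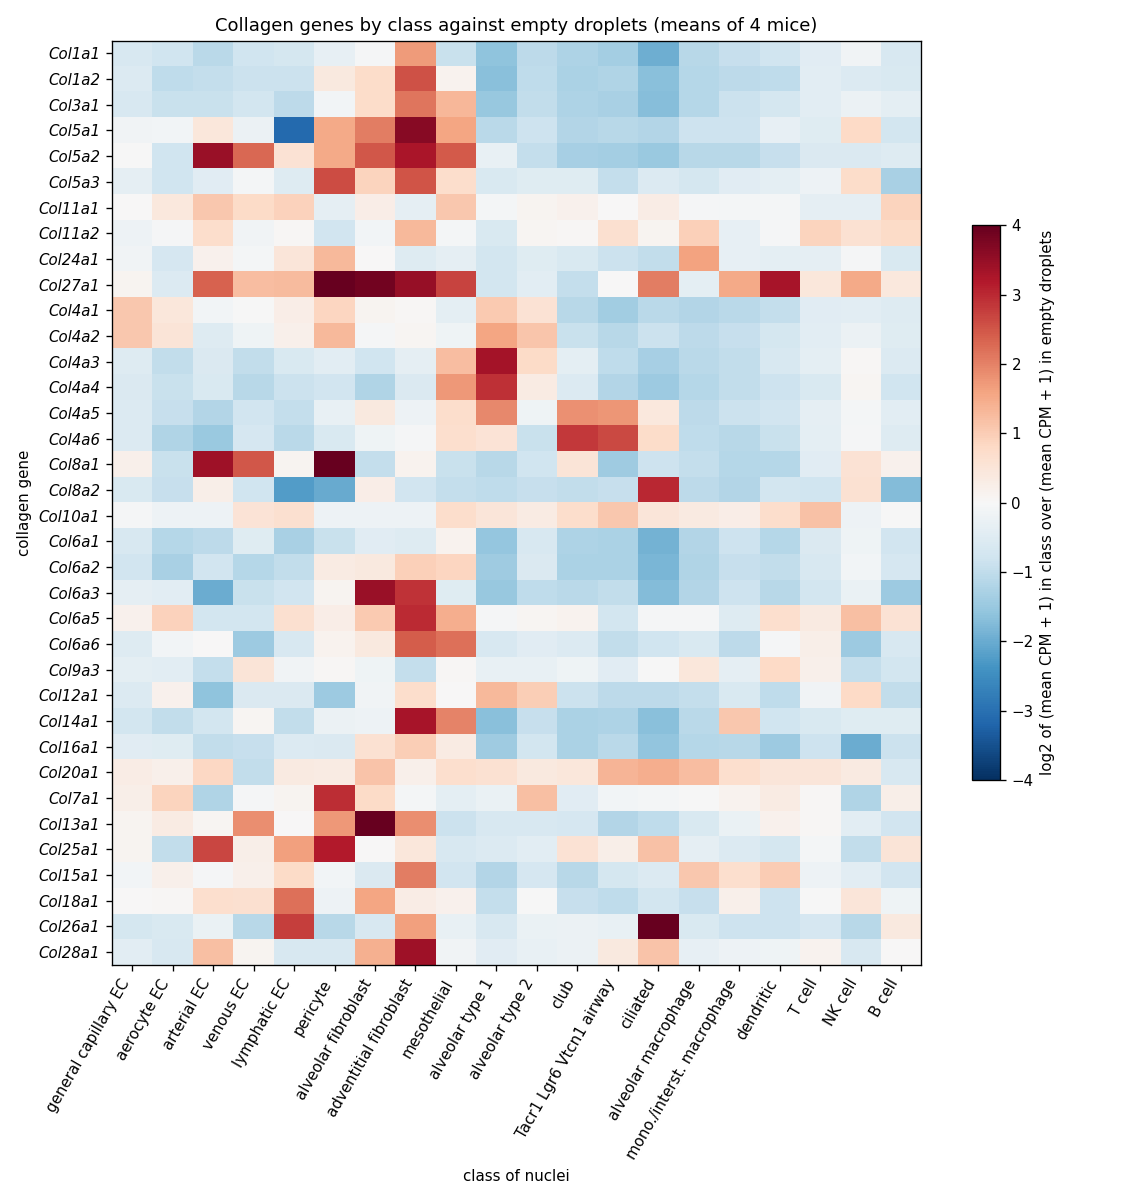
Mean level of 36 collagen genes (rows, those with at least 100 UMIs) in 20 classes (columns) against the empty droplets, as log2 of mean CPM + 1 over 4 mice; red is higher in the class, blue lower, and values beyond 4 are drawn as 4. Adventitial fibroblasts stand out for Col1a1, Col1a2, Col3a1 and Col5a1, alveolar type 1 nuclei for Col4a3 and Col4a4, and club nuclei, among these tested classes, for Col4a6.

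Among the named classes, the highest collagen levels belonged to Col4a3 and Col4a4 in alveolar type 1 nuclei, the flat cells of the gas exchange surface. Col4a3 had 1340 and 1332 CPM there in the WT mice and 1465 and 1460 CPM in the Tg mice, against 138 CPM on average in empty droplets. Its log2 difference from the empty droplets was 3.70 ± 0.22 (SE, n = 4 mice, edgeR adjusted p = 1.55e-07). Col4a4 had 1693 and 1447 CPM in WT and 1423 and 1471 CPM in Tg, with 197.5 CPM in empty droplets and a log2 difference of 3.29 ± 0.19 (SE, edgeR adjusted p = 1.56e-07). No other class reached these values in any mouse. With every nucleus thinned to 1500 UMIs, an expected 75.6% to 83.8% of alveolar type 1 nuclei per mouse had a Col4a3 UMI, against 12.1% to 21.4% of T cells, which should lack it (90.4% to 93.8% and 15.3% to 34.2% unthinned). Thinned shares here and below are expected values, not observed counts.

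Mesothelial nuclei, which cover the lung surface, came next for both chains but in another proportion. They had 277 and 292 CPM of Col4a3 in WT and 370.4 and 352 CPM in Tg, and 647 and 574 CPM of Col4a4 in WT and 729 and 704.5 CPM in Tg. The ratio of Col4a3 to Col4a4 UMIs was 0.427 to 0.51 in mesothelial nuclei and 0.792 to 1.03 in alveolar type 1 nuclei, with no overlap over the 4 mice. It was 0.566 to 0.778 in empty droplets. Both chains also passed the test in alveolar type 2 nuclei, the surfactant-producing cells, at 233 and 247 CPM on average.

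Col4a5 and Col4a6, the pair on the X chromosome, shared classes but in different proportions. Col4a6 was above the empty droplets in 5 classes, and Col4a5 in the same 5 and in alveolar fibroblasts. Col4a5 had 603 and 490.2 CPM in WT and 490.2 and 508 CPM in Tg in alveolar type 1 nuclei. Its level in club nuclei (secretory cells of the airway) was 460 and 450 CPM in WT and 524 and 528 CPM in Tg, and in the Tacr1 Lgr6 Vtcn1 airway secretory nuclei it was 468 and 502 CPM in WT and 426.5 and 483 CPM in Tg. These 3 classes overlapped over the mice and were not ordered for Col4a5. Col4a6 had 429 and 420.0 CPM in WT and 348 and 416 CPM in Tg in club nuclei, and 358 and 409 CPM in WT and 268 and 389 CPM in Tg in the Tacr1 Lgr6 Vtcn1 airway secretory nuclei. The untested smooth muscle nuclei had 940.2 and 151 CPM in WT and 130.4 and 90.8 CPM in Tg, from 3 to 15 UMIs per mouse. In alveolar type 1 nuclei Col4a6 had only 108 and 87.5 CPM in WT and 58.3 and 75.3 CPM in Tg. Its log2 difference from empty droplets was 3.17 ± 0.29 (SE) in club and 1.07 ± 0.21 (SE) in alveolar type 1 nuclei, with edgeR adjusted p of 1.56e-05 and 0.000765. The ratio of Col4a5 to Col4a6 was thus 5.6 to 8.41 in alveolar type 1 nuclei, 1.07 to 1.5 in club and 1.23 to 1.59 in the Tacr1 Lgr6 Vtcn1 nuclei. Thinned to 1500 UMIs, 34.9% to 39.4% of club nuclei and 3.79% to 9.38% of T cells had a Col4a6 UMI (48.5% to 60.9% and 4.65% to 15.6% unthinned).

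Col4a1 and Col4a2, the general basement membrane chains, were above the empty droplets in both kinds of capillary ECs, in pericytes and in alveolar type 1 and type 2 nuclei. General capillary ECs had 317.5 and 226 CPM of Col4a1 in WT and 414 and 314 CPM in Tg, and 261 and 212 CPM of Col4a2 in WT and 324 and 293.5 CPM in Tg. Pericytes, the mural cells of capillaries, had 227 and 299 CPM of Col4a1 in WT and 323 and 242 CPM in Tg, and 254 and 352 CPM of Col4a2 in WT and 337 and 325 CPM in Tg. In alveolar type 1 nuclei Col4a1 was 277 and 328 CPM in WT and 336 and 310.3 CPM in Tg, and Col4a2 was 316 and 423 CPM in WT and 400.3 and 396 CPM in Tg. The ranges of these classes overlapped for both chains. Within mice, alveolar type 1 nuclei were the highest named class for Col4a2 in 4 of 4, and general capillary ECs for Col4a1 in 1. Alveolar type 2 nuclei had means of 228 CPM of Col4a1 and 277 CPM of Col4a2. The log2 difference from empty droplets in general capillary ECs was 1.15 ± 0.14 (SE, edgeR adjusted p = 3.58e-06) for Col4a1 and 1.15 ± 0.12 (SE, edgeR adjusted p = 6.68e-07) for Col4a2. Across the classes with enough UMIs the ratio of Col4a1 to Col4a2 ran from 0.739 to 2.0, with 0.744 to 0.958 in pericytes and 1.07 to 1.28 in general capillary ECs. Per 10 kb of gene, a scaling whose fit to these libraries was not tested, the mean level in alveolar type 1 nuclei was 104 CPM for Col4a3 and 109 CPM for Col4a4, against 27.3 CPM for Col4a1, 28.1 CPM for Col4a2, 24.5 CPM for Col4a5 and 2.66 CPM for Col4a6.

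**Figure D2:**
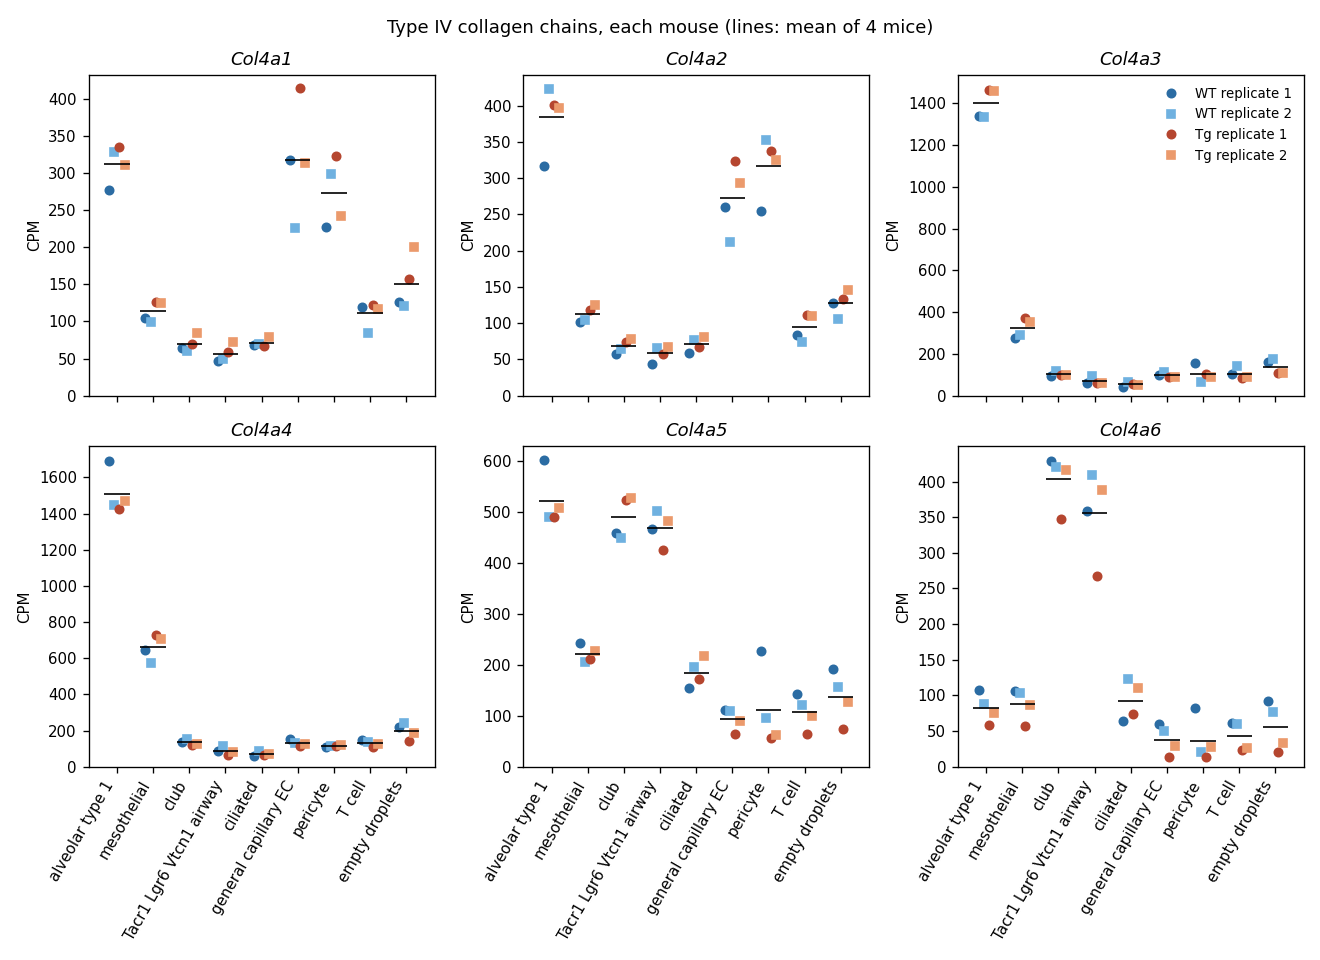
Level (CPM) of the 6 type IV chains in 8 classes and in empty droplets, with 1 point per mouse and a line at the mean of the 4 mice; each panel has its own axis from 0. Col4a3 and Col4a4 share alveolar type 1 and mesothelial nuclei, Col4a5 is at similar height in alveolar type 1 and airway secretory nuclei, and Col4a6 is highest in the airway secretory nuclei among the classes shown.

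Among the classes tested, Col1a1, Col1a2 and Col3a1 had their highest means in adventitial fibroblasts, the cells of the cuffs around vessels and airways, of which 37 to 69 nuclei per mouse were found. The untested Chl1 Kif26b Agtr1b fibroblasts overlapped with them for all 3 genes over the mice. Their means were 178 CPM of Col1a1, 384 CPM of Col1a2 and 537 CPM of Col3a1. The summed fibrillar members came to 1981 CPM there and 2115 CPM in adventitial fibroblasts. Within mice, adventitial fibroblasts were the highest named class for Col3a1 in 4 of 4, for Col1a1 in 3 and for Col1a2 in 2. Col3a1 had 756 and 420 CPM in WT and 930.0 and 512.5 CPM in Tg, and Col1a2 had 868 and 377 CPM in WT and 717 and 497 CPM in Tg. Col1a1, the major chain of type I, had 224 and 114.5 CPM in WT and 255 and 134 CPM in Tg, from 17 to 43 UMIs per mouse. Their log2 differences from the empty droplets were 2.16 ± 0.23 for Col3a1, 2.45 ± 0.22 for Col1a2 and 1.67 ± 0.24 for Col1a1 (SE, edgeR adjusted p of 4.70e-16, 5.69e-20 and 3.55e-09). In alveolar fibroblasts, the fibroblasts of the alveolar walls, Col1a1 was at 42.6 and 44.9 CPM in WT and 61.0 and 62.3 CPM in Tg, and its log2 difference from empty droplets was 0.09 ± 0.17 (SE, edgeR adjusted p = 0.683). Col1a2 and Col3a1 did pass the test there, at 174 and 244 CPM on average.

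The type V chains, which nucleate type I fibrils, reached beyond the fibroblasts. Col5a1 had 91.0 and 85.9 CPM in WT and 160 and 86.7 CPM in Tg in adventitial fibroblasts. Col5a2 had 721 and 405.5 CPM in WT and 480 and 363 CPM in Tg there, and 439 and 238 CPM in WT and 174 and 294 CPM in Tg in alveolar fibroblasts. Its highest mean was in the Chl1 Kif26b Agtr1b fibroblasts, at 870.1 and 481 CPM in WT and 548 and 563 CPM in Tg, a class with 5 and 11 nuclei in the Tg mice that was not tested. Arterial ECs had 934 and 135.5 CPM of Col5a2 in WT and 566 and 595 CPM in Tg, with a log2 difference from empty droplets of 3.26 ± 0.28 (SE, edgeR adjusted p = 6.30e-29). The second WT mouse, from 15 arterial nuclei and 10 UMIs, was far below the other 3. Col27a1, a fibrillar collagen of cartilage, was above the empty droplets in 9 classes, among them pericytes at 75.6 and 80.0 CPM in WT and 91.4 and 87.1 CPM in Tg. Dendritic nuclei had 24.7 and 35.5 CPM of it in WT and 78.8 and 29.3 CPM in Tg. Its highest mean, 96.1 CPM with 56.8 and 86.6 CPM in WT and 156 and 84.5 CPM in Tg, was in the untested Chl1 Kif26b Agtr1b fibroblasts.

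Several other collagens were highest outside the classes named so far or in 1 kind of fibroblast. Col13a1, a transmembrane collagen, had 184 and 86.8 CPM in WT and 154 and 124.5 CPM in Tg in alveolar fibroblasts, with 4.56 CPM in empty droplets and a log2 difference of 4.90 ± 0.19 (SE, edgeR adjusted p = 1.02e-14). Thinned to 1500 UMIs, 10.4% to 23.9% of alveolar fibroblasts and 0.575% to 0.704% of T cells had a Col13a1 UMI (24.8% to 50.3% and 0.930% to 1.15% unthinned). Col13a1 was also above the empty droplets in venous ECs, pericytes and adventitial fibroblasts, and the untested Chl1 Kif26b Agtr1b fibroblasts had 125.5 CPM of it on average, with 0 in the first Tg mouse. Col14a1, a fibril-associated collagen, had 511 and 138 CPM in WT and 456 and 315 CPM in Tg in adventitial fibroblasts (log2 difference 3.19 ± 0.23, edgeR adjusted p = 1.66e-28), and 28.2 and 23.7 CPM in WT and 40.1 and 48.7 CPM in Tg in empty droplets. It also passed the test in mesothelial nuclei, at 144 CPM on average, and in monocytes and interstitial macrophages.

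Col8a1, of the short-chain network in vessel walls, had 165 and 203 CPM in WT and 77.3 and 131 CPM in Tg in pericytes, with a log2 difference from empty droplets of 4.66 ± 0.30 (SE, edgeR adjusted p = 9.47e-51). It was also above the empty droplets in arterial ECs, venous ECs and club nuclei. The untested smooth muscle nuclei overlapped with pericytes, at 0 CPM in both WT mice and 391 and 151 CPM in Tg, from 9 and 5 UMIs. Its partner Col8a2 was high in another place, the ciliated airway nuclei, at 55.5 and 67.5 CPM in WT and 69.4 and 68.0 CPM in Tg. Col26a1 shared the ciliated nuclei, at 34.2 and 52.7 CPM in WT and 38.2 and 33.2 CPM in Tg against 1.16 CPM in empty droplets (log2 difference 5.06 ± 0.30, edgeR adjusted p = 2.94e-09). Thinned to 1500 UMIs, 4.61% to 6.04% of ciliated nuclei and 0% to 0.187% of T cells had a Col26a1 UMI (13.7% to 20.9% and 0% to 0.258% unthinned).

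Of the type VI chains, which form filaments next to cells, only Col6a3 stood well above the free RNA in fibroblasts. Alveolar fibroblasts had 234.5 and 139 CPM of Col6a3 in WT and 175 and 203 CPM in Tg (log2 difference 3.72 ± 0.19, edgeR adjusted p = 7.75e-13). Adventitial fibroblasts had 98.0 and 129 CPM in WT and 142 and 134 CPM in Tg. Smooth muscle nuclei had the highest mean of Col6a3, at 289 and 272.5 CPM in WT and 174 and 151 CPM in Tg, from only 5 to 18 nuclei and 4 to 27 UMIs per mouse, and were not tested. Col6a1 had 35 and 47.7 CPM in WT and 53.3 and 78.8 CPM in Tg in adventitial fibroblasts, against 37.4 to 121 CPM in the empty droplets. Its highest mean was in mesothelial nuclei, at 65.5 and 54.9 CPM in WT and 119 and 101.5 CPM in Tg, where the log2 difference from empty droplets was 0.31 ± 0.17 (SE, edgeR adjusted p = 0.121). These nuclei were the highest named class for Col6a1 in 1 of 4 mice and above the empty droplets in 2. They overlapped with the untested smooth muscle nuclei (82.7 CPM on average). Col6a2 had its highest mean in adventitial fibroblasts, which overlapped with mesothelial nuclei (86.7 CPM on average) and were highest in 2 of 4 mice, at 105 and 66.8 CPM in WT and 65.2 and 134 CPM in Tg (log2 difference 1.04 ± 0.29, edgeR adjusted p = 0.0025).

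Lower levels completed the picture. Col12a1, a fibril-associated collagen, had 37.9 and 25.1 CPM in WT and 31.9 and 27.3 CPM in Tg in alveolar type 1 nuclei, with 11.9 CPM in empty droplets. Pericytes had the highest levels of Col7a1 (20.6 and 21.3 CPM in WT, 21.1 and 3.96 CPM in Tg), which builds anchoring fibrils, and of Col25a1 (13.8 and 21.3 CPM in WT, 21.1 and 11.9 CPM in Tg), each from 1 to 4 UMIs per mouse. Col18a1, the basement membrane collagen that holds endostatin, had 8.85 and 17.6 CPM in WT and 60.5 and 17.6 CPM in Tg in lymphatic ECs (log2 difference 2.31 ± 0.43 from empty droplets, edgeR adjusted p = 0.000128), and 7.75 and 14.9 CPM in WT and 156 and 28.2 CPM in Tg in the Chl1 Kif26b Agtr1b fibroblasts, the latter from 1 to 5 UMIs per mouse. Its relative Col15a1 had 7 and 28.6 CPM in WT and 41.5 and 39.4 CPM in Tg in adventitial fibroblasts (log2 difference 2.13 ± 0.55, edgeR adjusted p = 0.00118). In smooth muscle nuclei Col15a1 had 0 and 303 CPM in WT and 130.4 and 0 CPM in Tg, from 30 and 3 UMIs in the mice that had any. General capillary ECs had 3.63 to 8.80 CPM of Col15a1, near the 4.29 to 8.82 CPM of the empty droplets.

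Highest means are given among the named classes. Of the other members, Col16a1 had 15.2 and 11.4 CPM in WT and 16.5 and 14.6 CPM in Tg in alveolar fibroblasts (edgeR adjusted p = 0.0389 against empty droplets). Col20a1 passed the test in 7 classes, with 9.10 and 11.2 CPM in WT and 14.4 and 12.1 CPM in Tg in alveolar macrophages. Col24a1 passed it in alveolar macrophages alone, with 38.8 CPM in the first WT mouse and 1.67 to 2.20 CPM in the others, so that 1 mouse decided its level. Col6a6 had 33.4 CPM in mesothelial nuclei of the second WT mouse and 3.15 to 5.65 CPM in those of the others. Col5a3 passed the test in pericytes, adventitial fibroblasts and mesothelial nuclei, Col11a1, Col6a5 and Col6a6 in mesothelial nuclei alone, Col11a2 in alveolar macrophages and Col28a1 in adventitial fibroblasts and ciliated nuclei, with means of 1.73 CPM for Col11a1, 3.02 CPM for Col5a3, 3.55 CPM for Col6a5 and 11.5 CPM for Col6a6 in mesothelial nuclei, of 2.28 CPM for Col11a2 and of 2.40 CPM for Col28a1 in ciliated nuclei. Col5a3, Col10a1, Col16a1, Col24a1 and Col28a1 had their highest mean in the untested Chl1 Kif26b Agtr1b fibroblasts. The per-mouse levels there were 5.16, 2.99, 0 and 56.3 CPM for Col5a3 (2 WT mice, then 2 Tg mice), 0, 0, 0 and 28.2 CPM for Col10a1, 23.2, 17.9, 78.2 and 84.5 CPM for Col16a1, 49.1, 32.9, 0 and 197 CPM for Col24a1 and 5.16, 8.96, 78.2 and 0 CPM for Col28a1. Every value above 50 CPM in these 5 rests on 1 to 7 UMIs. The highest means of Col6a5 (217, 50.5, 0 and 0 CPM) and Col6a6 (72.3, 10.1, 0 and 0 CPM) were in smooth muscle, those of Col11a2 (0, 15.2, 0 and 0 CPM) and Col20a1 (52.9, 15.2, 0 and 17.4 CPM) in plasma cells, that of Col11a1 (0, 0, 0 and 7 CPM) in arterial ECs and that of Col9a3 (0, 1.54, 6.85 and 0.861 CPM) in dendritic nuclei, in the same order of mice and from 1 to 8 UMIs per class. Col10a1 and the 7 members under 100 UMIs, among them Col17a1 with 90, Col19a1 with 57 and Col22a1 with 30, passed the filter on low counts in no class.

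Summed over the 43 members, alveolar type 1 nuclei held 4472 ± 87.4 CPM of collagen transcripts (SD, n = 4 mice) and adventitial fibroblasts 3609 ± 837 CPM, against 1417 ± 126 CPM in empty droplets. The untested Chl1 Kif26b Agtr1b fibroblasts had 3581 ± 936 CPM and smooth muscle nuclei 2939 ± 660 CPM (SD, n = 4). Mesothelial nuclei had 2772 ± 148 CPM and alveolar fibroblasts 2098 ± 190 CPM (SD, n = 4). Between genotypes the summed level of alveolar type 1 nuclei was 4441 ± 122 CPM in WT and 4502 ± 65.8 CPM in Tg (SD, n = 2 each, exact permutation p = 0.667, two-sided). In adventitial fibroblasts it was 3453 ± 1190 CPM in WT and 3766 ± 764 CPM in Tg (exact permutation p = 0.667), and in general capillary ECs 1264 ± 66.5 CPM in WT and 1489 ± 25.5 CPM in Tg (exact permutation p = 0.333). With no mixed nuclei dropped, Tg minus WT was -188 CPM in alveolar type 1 nuclei and -338 CPM in adventitial fibroblasts, the other direction. The mean was higher in Tg in 17 of 20 classes, and in 6 of them the genotypes did not overlap, each with p = 0.333, the smallest that 2 against 2 mice allow in the exact test. These classes share the free RNA of their mouse and are not independent.

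Between genotypes, 339 pairs of a class and a member were tested with edgeR, and 26 had an adjusted p under 0.05, 22 higher and 4 lower in Tg. Over all genes the background was 9.52% called, with 7.43% higher and 2.09% lower. By class it was 14.3% in general capillary, 8.0% in aerocyte, 5.5% in arterial, 10.5% in venous and 8.15% in lymphatic ECs. It was 8.72% in mesothelial, 10.3% in alveolar type 1, 10.6% in alveolar type 2, 12.7% in club, 13.3% in the Tacr1 Lgr6 Vtcn1 and 5.26% in ciliated nuclei. Among immune classes it was 9.76% in alveolar macrophages, 3.93% in monocytes and interstitial macrophages, 9.58% in dendritic nuclei, 10.0% in T cells, 16.1% in NK cells and 7.56% in B cells. The 26 pairs belonged to 6 members and to 13 classes. The genotypes did not overlap in any of them, which adds little for pairs already picked by their adjusted p. The share without overlap over all called genes was not counted. Col6a1 and Col6a2 made up 18 of the 26. The median log2 difference of the members tested was 0.45 in general capillary ECs (0.02 over all genes) and 0.27 in alveolar fibroblasts (0.02). It was 0.53 in adventitial fibroblasts (-0.03) and 0.18 in alveolar type 1 nuclei (0.01). Over the classes tested it ran from -0.04 in ciliated nuclei (0.01) to 0.69 in arterial ECs (-0.03). In mesothelial (0.04 against 0.03) and dendritic nuclei (0.02 against 0.01) it was near that of all genes.

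Col6a2 was called higher in Tg in 10 of the 16 classes tested, by 0.90 to 2.38 on the log2 scale. Its fitted difference was above 0 in all 16. The largest difference, in venous ECs, rests on 34 UMIs in all. In general capillary ECs Col6a2 had 14.2 and 15.3 CPM in WT and 33.8 and 45.0 CPM in Tg (log2 1.46 ± 0.29, edgeR adjusted p = 0.0167). In alveolar type 2 nuclei Col6a2 had 12.5 and 22.4 CPM in WT and 42.6 and 46.3 CPM in Tg, in alveolar type 1 nuclei 5.09 and 11.4 CPM in WT and 18.9 and 31.9 CPM in Tg, and in mesothelial nuclei 61.1 and 61.0 CPM in WT and 116 and 109 CPM in Tg. Both Tg values were thus above both WT values in each of these 4 classes, by fitted folds of 1.86 to 3.02. In the airway it had 6 and 13.5 CPM in WT and 23.5 and 32.5 CPM in Tg in club nuclei, and 8.20 and 7.69 CPM in WT and 24.3 and 36.1 CPM in Tg in the Tacr1 Lgr6 Vtcn1 nuclei. Alveolar macrophages had 7.08 and 10.1 CPM of Col6a2 in WT and 26.8 and 35.3 CPM in Tg, T cells 12.2 and 19.9 CPM in WT and 30.6 and 57.1 CPM in Tg, B cells 4.52 and 15.2 CPM in WT and 33.7 and 64.1 CPM in Tg, and venous ECs 10.7 and 0 CPM in WT and 25.7 and 47.8 CPM in Tg. In every one of these classes but the mesothelial, Col6a2 was below the empty droplets.

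Col6a1, its neighbour on chromosome 10, was called higher in Tg in 8 of 16 classes, by 0.82 to 2.66 on the log2 scale. Its fitted difference was above 0 in all 16. The largest difference, in lymphatic ECs, rests on 41 UMIs in all. It had 21.0 and 33.0 CPM in WT and 55 and 84.9 CPM in Tg in general capillary ECs (log2 1.43 ± 0.30, edgeR adjusted p = 0.0202), and 11.8 and 5.88 CPM in WT and 35.1 and 70.6 CPM in Tg in lymphatic ECs. Mesothelial nuclei had 65.5 and 54.9 CPM in WT and 119 and 101.5 CPM in Tg, alveolar type 1 nuclei 14.4 and 20.2 CPM in WT and 30.6 and 38.3 CPM in Tg, and alveolar type 2 nuclei 32.1 and 40.1 CPM in WT and 56.4 and 67.4 CPM in Tg. In club nuclei Col6a1 had 17.2 and 23.2 CPM in WT and 36.6 and 49.9 CPM in Tg, in alveolar macrophages 17.2 and 23.7 CPM in WT and 39.7 and 53.6 CPM in Tg, and in monocytes and interstitial macrophages 14.4 and 21.3 CPM in WT and 63.9 and 73.1 CPM in Tg.

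Col4a6 was called lower in Tg in 4 of 17 classes, none of which had it above the empty droplets. Its fitted difference was above 0 in only 1 of the 17. It had 59.6 and 49.8 CPM in WT and 13.9 and 28.6 CPM in Tg in general capillary ECs (log2 -1.30 ± 0.33, edgeR adjusted p = 0.0365), 44.6 and 43.1 CPM in WT and 11.4 and 20 CPM in Tg in alveolar type 2 nuclei, 44.8 and 34.5 CPM in WT and 10.6 and 18.0 CPM in Tg in alveolar macrophages, and 61.0 and 59.6 CPM in WT and 23.6 and 25.6 CPM in Tg in T cells. In club nuclei, where Col4a6 was highest, its log2 difference was -0.18 ± 0.15 (SE, edgeR adjusted p = 0.432). In alveolar type 1 nuclei, which also had it above the empty droplets, both Tg values were below both WT values, without a call. Col3a1 was called higher in Tg in lymphatic ECs and in NK cells, and its fitted difference was above 0 in all 20 classes tested. Lymphatic ECs had 17.7 and 44.1 CPM of it in WT and 143 and 79.4 CPM in Tg. In NK cells it had 17.2 and 90.8 CPM in WT and 260 and 131 CPM in Tg, from 47 UMIs in all. Col4a1 was called higher in NK cells alone, at 68.9 and 22.7 CPM in WT and 229 and 131 CPM in Tg, from 42 UMIs in all. Its fitted difference was above 0 in all 20 classes tested. Col14a1 was called higher in club nuclei alone, with 7.69 and 8.51 CPM in WT and 18.2 and 22.3 CPM in Tg (log2 1.30 ± 0.23, edgeR adjusted p = 0.0216). Its fitted difference was above 0 in all 15 classes tested.

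**Figure D3:**
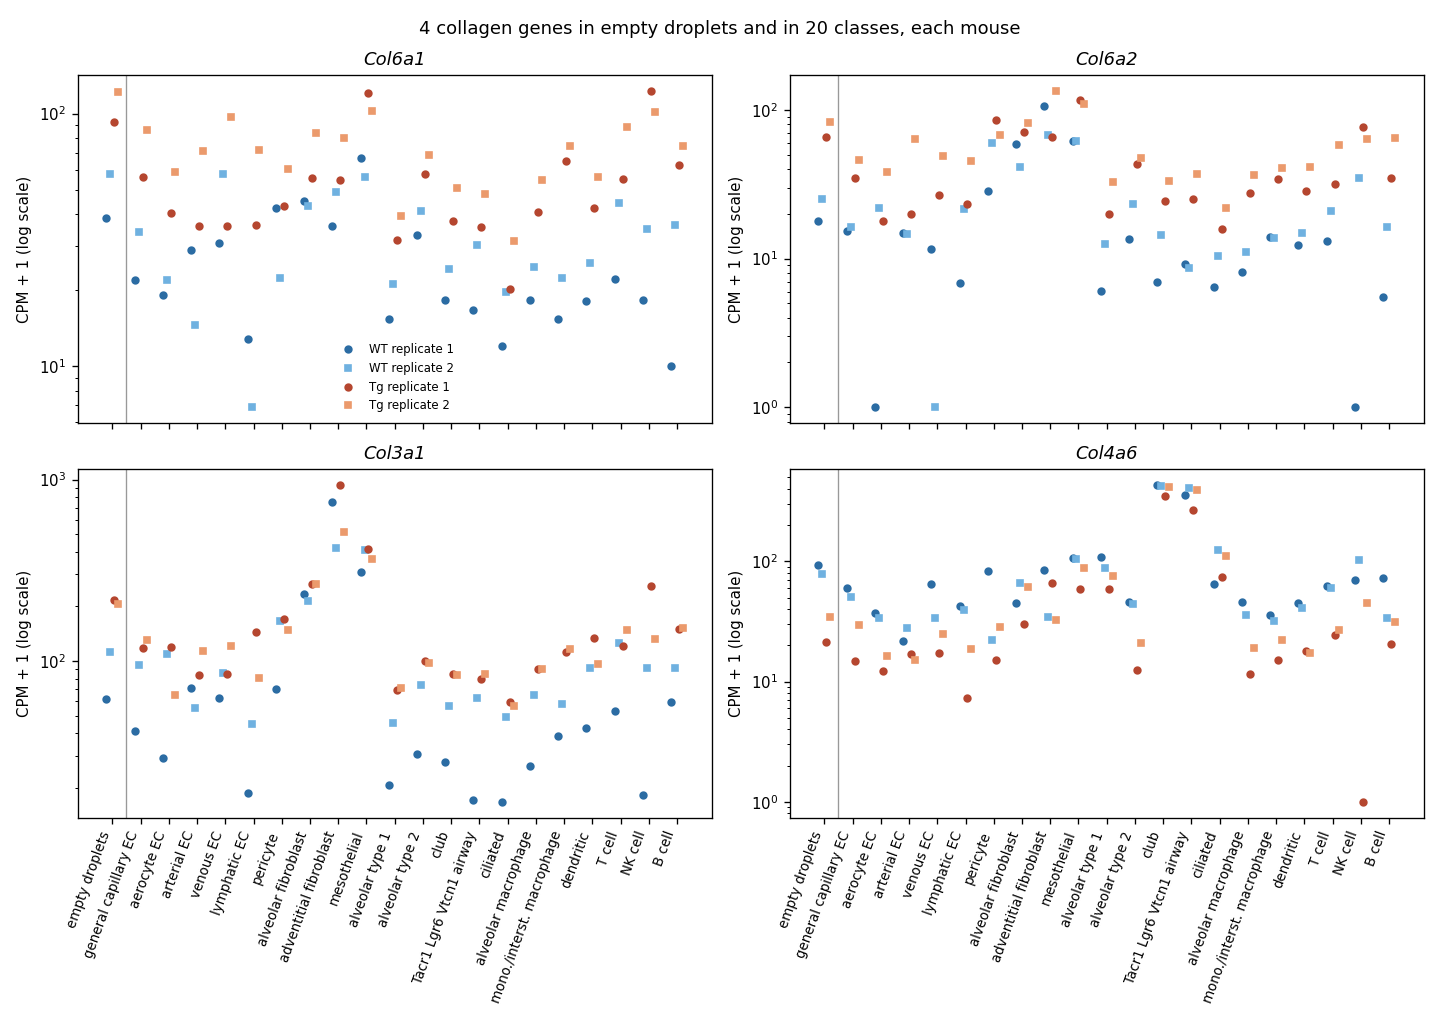
Level of Col6a1, Col6a2, Col3a1 and Col4a6 (CPM + 1, log scale) in empty droplets (left of the grey line) and in 20 classes, with 1 point per mouse. The 2 Tg mice lie above the 2 WT mice for Col6a1, Col6a2 and Col3a1 and below them for Col4a6 in the empty droplets, and the same order is seen in many classes, though the genotypes overlap for Col3a1 in adventitial fibroblasts and lie close together for Col4a6 in club nuclei.

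The same 6 members differed in the empty droplets, in the same direction. Col6a2 had 16.9 and 24.4 CPM there in WT and 64.7 and 82.6 CPM in Tg (log2 2.06 ± 0.26, edgeR adjusted p = 0.0178), and Col6a1 had 37.4 and 56.8 CPM in WT and 91.5 and 121 CPM in Tg (log2 1.40 ± 0.27, edgeR adjusted p = 0.0206). Col3a1 had 60.5 and 111 CPM in WT and 215 and 204 CPM in Tg (log2 1.55 ± 0.34, edgeR adjusted p = 0.0257), and Col4a6 had 92.3 and 77.0 CPM in WT and 20.2 and 33.4 CPM in Tg (log2 -1.47 ± 0.26, edgeR adjusted p = 0.0184). Col14a1 and Col4a1 were higher by 1.01 ± 0.24 and 0.77 ± 0.22 on the log2 scale. Thus all 26 called pairs were of a member called in the same direction in droplets without a nucleus, where the background was 25.6% of 15180 genes called. Over all genes the same held for 81.6% of the 18860 called pairs. Of the 26, 22 were below the empty droplets, 3 were neither above nor below, and 1, Col6a2 in mesothelial nuclei, was above. Among the 84 pairs in which the class was above the empty droplets 1 was called (1.19%), and among the other 255 pairs 25 were called (9.8%). Over all genes the shares were 6.75% of 54876 pairs above and 10.6% of 143238 pairs not above. The estimated free RNA was then subtracted from each class, with counts below 0 set to 0. Of the 26 pairs 18 could be tested and 0 were called by edgeR. Over all genes 13.1% of 14738 such pairs were called again in the same direction. The log2 differences of the 18 ran from -0.21 for Col4a6 in general capillary ECs to 8.48 for Col14a1 in club nuclei. Of these, 16 kept their sign and 2 turned it, Col4a6 in alveolar type 2 nuclei (0.23) and T cells (0.19). Little of a member below the empty droplets is left after subtraction, so the lost calls do not show that its difference is gone. In that fit 2 of 234 pairs were called, against 1.67% of all genes. Both were of Col1a2 and higher in Tg, in alveolar type 1 (log2 7.66) and alveolar type 2 nuclei (log2 4.78). Neither class had Col1a2 above the empty droplets, and counts set to 0 can inflate such ratios.

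**Figure D4:**
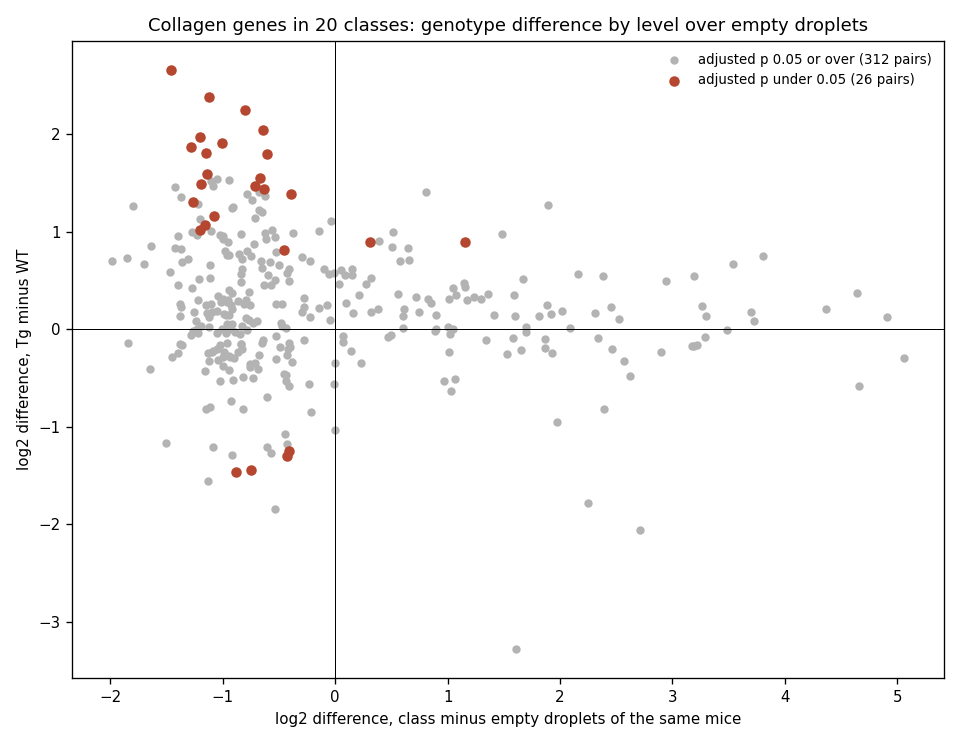
Log2 difference Tg minus WT (vertical) against log2 difference between the class and the empty droplets (horizontal) for 338 pairs of a collagen gene and a class with both values; red points have an adjusted p under 0.05 between genotypes. All but 2 of the 26 red points lie left of 0, where the class is below the empty droplets, and the rightmost red point lies at 1.15.

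In alveolar type 1 and mesothelial nuclei, Col6a1 and Col6a2 were the members called between genotypes. No member was called in the fibroblast classes tested or in pericytes. Alveolar fibroblasts had 21 members tested and 0 called by edgeR (background 7.26%), with 4 at an unadjusted p under 0.05 and the lowest adjusted p at 0.131 for Col6a1. Adventitial fibroblasts had 14 tested and 0 called (background 8.51%), with 2 at an unadjusted p under 0.05, and pericytes 11 tested and 0 called (background 8.27%), with 1. Col3a1 in adventitial fibroblasts differed by 0.56 ± 0.39, Col1a1 by 0.52 ± 0.43 and Col1a2 by 0.23 ± 0.40 on the log2 scale, with overlap between the genotypes. Col13a1 in alveolar fibroblasts differed by 0.12 ± 0.35 and Col8a1 in pericytes by -0.58 ± 0.36, the latter with 24 and 38 UMIs in WT and 11 and 33 in Tg. Col4a3 and Col4a4 in alveolar type 1 nuclei, the former with 25260 UMIs in all, differed by 0.18 ± 0.18 and -0.08 ± 0.19 (edgeR adjusted p of 0.537 and 0.809). In general capillary ECs, in which the promoter of the transgene is active, Col4a1 and Col4a2 differed by 0.47 ± 0.25 and 0.44 ± 0.20 (edgeR adjusted p of 0.229 and 0.177). Col4a2 was called there in the fit without the trend on gene length, given below. In simulated counts of alveolar fibroblasts the same test recovered 45% of genes changed 2-fold and 91.5% of genes changed 4-fold. Differences near 2-fold could thus be missed at this depth. The simulation gave every gene the same spread between mice, so real genes of wider spread would be recovered less often. Whether the genotype difference itself differed between classes was tested as an interaction. Between alveolar and adventitial fibroblasts 0 of 19 members and 0 of 8717 genes (0.0%) passed, and between general capillary ECs and alveolar fibroblasts 0 of 21 members and 17 of 12147 genes (0.14%), with the lowest adjusted p of a member at 0.192 for Col4a6.

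Gene length moved with the genotype difference in the free RNA. In the empty droplets, Spearman's correlation between the length of the gene and the log2 ratio of Tg to WT was -0.662 across 13285 genes and -0.412 across the 23 members with at least 100 UMIs, as a description across genes that share the same 4 libraries. Of 4 groups of genes of equal size, the shortest (up to 11.2 kb) had a median log2 ratio of 0.62 and the longest (over 63.4 kb) one of -0.99. Over all genes the correlation was negative in 20 of 20 classes, from -0.661 to -0.432, and over members in 12 of the 12 classes with enough of them, from -0.764 to -0.328. Col6a1 (17.4 kb), Col6a2 (27.9 kb) and Col3a1 (38.2 kb) are among the shorter members, and Col4a6 (308.7 kb) is the longest of the 23. The other 2 called members are longer genes that were higher in Tg, against the trend, with log2 ratios of 0.75 for Col14a1 (213 kb) and 0.54 for Col4a1 (114 kb). When the trend on gene length was taken out of the fit, 13 of 339 pairs were called, all higher in Tg. Of these 5 were among the 26, and 3.04% of all genes were called in that fit. Col4a2 was called in it in general capillary ECs (log2 0.85 ± 0.18, edgeR adjusted p = 0.0404) and aerocyte ECs (log2 0.99 ± 0.22, edgeR adjusted p = 0.0296). Both classes had it above the empty droplets. Col4a5 was called in club nuclei, where it was above them as well (log2 0.64 ± 0.12, edgeR adjusted p = 0.0444). Col4a2 was called too in T cells (log2 0.96) and in the empty droplets themselves (log2 1.25). The part of length in the called differences was otherwise not tested, and it cannot be told apart from other differences between the nuclei preparations of the 4 lungs.

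**Figure D5:**
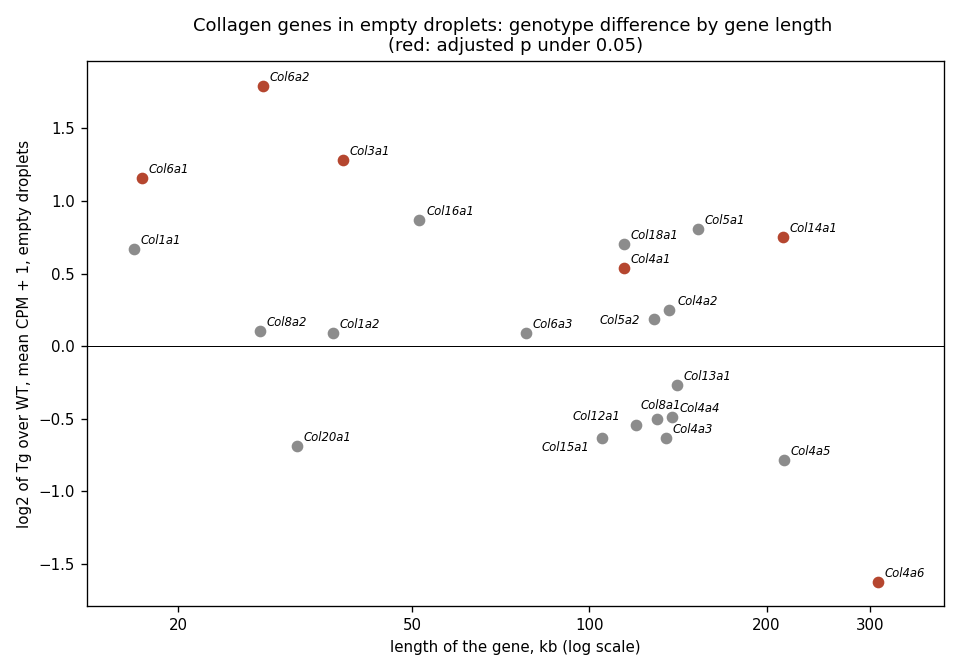
Log2 ratio of Tg to WT in empty droplets (mean CPM + 1, vertical) against the length of the gene in kb (horizontal, log scale) for the 23 collagen genes with at least 100 UMIs there; red points have an adjusted p under 0.05. Short Col6a1, Col6a2 and Col3a1 lie above 0, as do the longer Col4a1 and Col14a1, and Col4a6, the longest at 308.7 kb, lies lowest.

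A list of 57 genes of collagen processing, receptors and turnover, chosen with earlier results of these data known, gave 93 called pairs of a class and a gene among 670 tested, 79 higher and 14 lower in Tg, against the 9.52% called over all genes. Bgn (biglycan, a proteoglycan bound to fibrils) was higher in Tg in 20 of 20 classes, by 1.35 to 4.10 on the log2 scale, and by 2.37 in empty droplets. In alveolar fibroblasts its difference was 1.47 ± 0.22 (SE, edgeR adjusted p = 0.00405), in adventitial fibroblasts 2.05 ± 0.35 (edgeR adjusted p = 0.00179) and in general capillary ECs 2.24 ± 0.29 (edgeR adjusted p = 0.00481). Sparc, a matricellular protein that binds collagen, was called higher in 16 of 20 classes, and Pcolce, which enhances propeptide cleavage, in 14 of 17. Ppib, a proline isomerase of the endoplasmic reticulum, was called higher in 13 of 16, and P3h4, of the hydroxylase complex, in 9 of 13. In alveolar fibroblasts Ppib differed by 2.14 ± 0.35 and Sparc by 1.12 ± 0.22, and in general capillary ECs Pcolce differed by 2.04 ± 0.31 and Sparc by 1.24 ± 0.25 (edgeR adjusted p of 0.00625, 0.0151, 0.00739 and 0.0179). Bmp1, the procollagen C-proteinase, was called lower in 6 of 18 classes and its relative Tll1 in 6 of 16. Of the 50 listed genes tested in empty droplets, 9 were called higher and 5 were called lower in Tg (background 25.6% called). Bgn, Sparc, Pcolce, Ppib and P3h4 were among the higher and Bmp1 and Tll1 among the lower. The median log2 difference of the listed genes was 0.29 in alveolar fibroblasts, 0.22 in adventitial fibroblasts and 0.45 in empty droplets. Fewer pairs of listed genes were called with free RNA subtracted or with the trend on gene length removed, as counted in the last section.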

How the data were processed

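Nuclei of 2 WT and 2 Tg lungs were isolated by Dounce homogenisation in a lysis buffer and sequenced as 10x 3' libraries. The authors deposited raw UMI counts per gene and barcode, without filters on nuclei, made with Cell Ranger 6.1.1 on mm10 per the labels and with intronic reads included. The study's own filters on nuclei and its doublet scores are not in these files.

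Barcodes with at least 1500 UMIs were kept, those whose counts matched the free RNA were removed, and the rest were assigned to classes by profiles seeded with marker lists, without collagen genes. Nuclei with signal of more than 1 lineage (15969) were dropped as likely doublets. Of simulated doublets between lineages this step marked 58.8% and 65.7% in the WT libraries and 80.8% and 77.4% in the Tg libraries, so doublets remain, and the share missed was larger in WT. UMIs were summed per class and mouse, and classes with at least 10 nuclei in every mouse were tested. edgeR 4.0.16 (R 4.3.3) ran the quasi-likelihood test with filterByExpr at a minimum count of 10, TMM and Benjamini-Hochberg adjustment over all genes tested, with a threshold of 0.05. Class against empty droplets was fitted with a term for the mouse. Free RNA was estimated from Scgb1a1 and Scgb3a2 (Sftpc in airway classes), and its subtraction is an alternative. Other alternatives were DESeq2 1.42.0, its size factors, no filter, the replicate block, each mouse left out, at least 1000 UMIs, no mixed nuclei dropped, a doubled class margin and empty droplets of 100 to 300 UMIs. Added after seeing the data were empty droplets of 800 to 1200 UMIs and the removal of the trend on gene length. Thinned shares were computed as the expected share of nuclei with a UMI if 1500 UMIs were drawn from each nucleus without replacement.

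All 43 members matched GENCODE M21 by identifier, and 15 overlap another gene on the same strand and 18 on the opposite strand. How reads in such overlaps were assigned is not given in the sources used here. RefSeq windows were found for 34 members. Per-mouse values are given for members called between genotypes without overlap, for the class with the highest mean of each member with at least 100 UMIs, and for 15 listed members, and pathway genes are up to 3 per class with the lowest p past the threshold in 3 classes. The members and lists were chosen with earlier results of these data known. The test was tested on simulated data. In alveolar type 1 nuclei it recovered 58% of genes changed 2-fold and 96% of genes changed 4-fold, with 7.2% and 6.8% of its calls false. In alveolar fibroblasts 4.26% and 2.66% were false. The simulation gave every gene the same spread between mice and held no shift between genotypes beyond the changed genes. These rates need not hold for the real libraries. The labels do not say whether the lungs of a genotype were prepared separately, so the p-values measure the spread between these libraries. Coordinates are those of GRCm38 (mm10). 1 gene with a collagen symbol is not reported here.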

Additional observations from a re-analysis of the deposited data

Results flagged for a closer look

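The 93 nuclei of the group that stayed unnamed were used in no comparison. They had a mean of 1973 CPM of Col8a1 (1319 to 2602 CPM over the 4 mice, from 727 UMIs in all), against 5.51 CPM in empty droplets. There were 21 and 5 such nuclei in WT and 31 and 36 in Tg, and the group was gathered by heart muscle markers, of which 7 of 8 (from a list of Ttn, Ryr2, Myh6, Actc1, Tnnt2, Mybpc3, Myl7 and Sln) were above the empty droplets in every mouse. None of these was among its 10 leading genes by fold. Those included Kcnip1, Lingo2, Snap25 and Syt1, which were taken to go against a heart muscle name, so it was given no name. Some named classes also had none of their markers among their leading genes. These were aerocyte ECs and mesothelial, alveolar type 2, club, ciliated and alveolar macrophage nuclei. The Col8a1 level of the unnamed group was set apart because it lies outside the named classes and above the free RNA in every mouse. It is higher than Col8a1 in pericytes and smooth muscle nuclei, the named classes with the highest means, at 144 and 136 CPM. Col11a1 had a mean of 63.3 CPM in the same nuclei, from 29 UMIs, and was above the empty droplets in 3 of the 4 mice and at 0 in the other.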

How the results depend on the processing

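The number of pairs called between genotypes depended on the processing: 26 became 18 with DESeq2, 55 with no filter on low counts, 17 with no mixed nuclei dropped, 13 with the trend on gene length removed and 2 with free RNA subtracted, and 4 to 57 when a mouse was left out (4 without the first Tg mouse, 11 without the second Tg mouse, 57 without the second WT mouse). More pairs were tested with no filter (741 against 339), and the share called there was 7.42% against 7.67%. The share over all genes, 9.52%, moved in the same direction, to 5.99% with DESeq2, 9.21% with no filter and 6.74% with no mixed nuclei dropped. It was 3.04% with the length trend removed and 1.67% with free RNA subtracted. It also fell without either Tg mouse and rose without the second WT mouse. The sizes of the moves differed. Of the members, 3.49% were called with DESeq2 (of 516 pairs) and 4.39% with no mixed nuclei dropped. With the length trend removed 3.83% were called, and with free RNA subtracted 0.855%. Of the 26 pairs, 4 were called again without the first Tg mouse and 25 with DESeq2's size factors. The share of called pairs higher in Tg, 84.6%, was 54.5% without the second Tg mouse and 100% without the first Tg mouse, with the length trend removed or with free RNA subtracted. In empty droplets 6 members became 0 with droplets of 100 to 300 UMIs, of which there were only 95 to 113 per mouse, and 0 to 7 with a mouse left out (0 without the first Tg mouse, 1 without the second). With droplets of 800 to 1200 UMIs, 7 members were called there, Col4a1 was no longer among them, and 112 pairs were above and 261 below. Pairs above the empty droplets fell from 101 to 39, and pairs below from 221 to 3, with droplets of 100 to 300 UMIs, and were 84 to 96 and 186 to 210 with a mouse left out. Pathway pairs, 93, became 156 with no filter, 41 with the length trend removed, 18 with free RNA subtracted and 24 to 166 with a mouse left out (24 without the first Tg mouse, 166 without the second WT mouse). With no mixed nuclei dropped, the summed level was 2595 CPM in mesothelial, 4183 CPM in alveolar type 1 and 904.8 CPM in dendritic nuclei, and Tg minus WT was -188 CPM in alveolar type 1 nuclei and -338 CPM in adventitial fibroblasts, both positive otherwise, and 72.9 CPM in dendritic nuclei. With free RNA subtracted, the log2 difference of Col4a6 was 0.23 in alveolar type 2 nuclei and 0.19 in T cells, of the other sign. Over the settings, 157 of 179 summary values stayed close to the first value (counts within 1.5 times, levels within 1 SD over mice, differences of the same sign or within 1 SD), and 386 of 388 values of called members kept their sign while 146 lost the call; the cause was not tested. The labels give both genotypes replicate numbers 1 and 2, and with the replicate block 35 pairs, 9 members in empty droplets and 122 pathway pairs were called, while the share over all genes rose to 13.7%. The numbers share no stated litter or batch, and deviations of same-numbered mice correlated by -0.124 to 0.404 in the classes (16 of 20 positive) and 0.0171 in empty droplets. The crossed pairing was not run. Depth limits what could be seen in rare classes, where a member often had fewer than 20 UMIs per mouse.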
